A study of Mus musculus with 4 samples.

Results

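The troponin complex was described here by its 8 genes for troponin T, I and C in mouse hearts. Members were taken by gene name: a probe set was included when the platform annotation gave it 1 gene symbol and that symbol was *Tnnt1*, *Tnnt2*, *Tnnt3*, *Tnni1*, *Tnni2*, *Tnni3*, *Tnnc1* or *Tnnc2*. This gave 8 genes of 18193 named genes and 12 probe sets of 45037 tested. *Tnnt2* and *Tnni2* had 3 probe sets each, and the other 6 genes had 1 each. RNA came from 2 *Jun* delta mu and 2 *Jun* f/f hearts of mice aged 10 weeks, with 1 Affymetrix GeneChip array for the mouse genome per heart. All animals carried floxed alleles of *Jun*, the gene of the AP-1 transcription factor c-Jun, on a mixed 129/Ola-C57BL/6 background. *Jun* delta mu mice also carried Cre recombinase under the muscle creatine kinase promoter, which deletes *Jun* in striated muscle only, so other cells of the heart keep the gene. *Jun* f/f littermates lacked Cre. No agent or operation is given for these animals. The samples' growth notes speak of plated ventricular cells, which conflicts with their labels as hearts. The study's methods give hearts of mice aged 10 weeks as the source of this RNA, and the samples were taken as such.

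Troponin is the calcium switch of striated muscle. Troponin C binds calcium, troponin I holds the thin filament in the off state when calcium is low, and troponin T ties both to tropomyosin. Each subunit has isoforms for muscle types. Adult heart muscle uses *Tnnt2*, *Tnni3* and *Tnnc1*, slow skeletal muscle uses *Tnnt1*, *Tnni1* and again *Tnnc1*, and fast skeletal muscle uses *Tnnt3*, *Tnni2* and *Tnnc2*. *Tnni1* is also the main troponin I of the fetal heart and gives way to *Tnni3* around birth. The comparison asks whether this set of isoforms differs when c-Jun is missing from muscle in an unstressed heart.

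c-Jun acts at AP-1 elements, so a sequence is shown for each of the 3 cardiac genes. Each is the 250 bases upstream of a RefSeq transcript start on GRCm38.p6, read 5′ to 3′ on the strand of the gene. Capitals mark a match to a searched motif, and a sequence with none is all in lower case. The *Tnnt2* window is chr1:135836084-135836333 (+ strand), the *Tnni3* window chr7:4522529-4522778 (- strand) and the *Tnnc1* window chr14:31208062-31208311 (+ strand). On the minus strand *Tnni3* begins at 4522718, so most of its window lies inside the gene, before an internal start. The *Tnnt2* window runs slightly past the first base of that gene, 135836315.
Tnnt2: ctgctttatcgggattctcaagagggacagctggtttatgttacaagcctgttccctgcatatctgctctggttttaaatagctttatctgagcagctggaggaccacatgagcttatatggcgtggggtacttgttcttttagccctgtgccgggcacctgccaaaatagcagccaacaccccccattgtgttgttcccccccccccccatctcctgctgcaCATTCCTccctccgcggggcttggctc
Tnni3: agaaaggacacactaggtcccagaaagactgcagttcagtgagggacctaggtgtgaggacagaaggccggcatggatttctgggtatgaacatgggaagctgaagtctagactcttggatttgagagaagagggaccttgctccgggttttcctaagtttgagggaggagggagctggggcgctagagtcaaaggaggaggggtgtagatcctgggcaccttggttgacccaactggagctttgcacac
Tnnc1: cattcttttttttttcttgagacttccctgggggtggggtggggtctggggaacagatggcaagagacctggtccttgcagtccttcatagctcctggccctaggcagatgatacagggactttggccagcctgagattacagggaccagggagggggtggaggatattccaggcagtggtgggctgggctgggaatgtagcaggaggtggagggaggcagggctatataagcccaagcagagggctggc

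The capitals in *Tnnt2* mark CATTCCT, the M-CAT element bound by TEAD factors and first described in the cardiac troponin T gene of chicken, which began at position -27 from this start. Windows that run 250 bases before to 50 bases after each start were searched on both strands for 6 motifs. The AP-1 element was searched as TGACTCA, with its complement on the opposite strand. A related element was TGACGTCA. The M-CAT was searched as CATTCCT and the TATA box as TATAAA, each also on the opposite strand, and the MEF2 site and the CArG box are given by name. None of these overlapped in the troponin windows. The table held 8 windows for 6 of the 8 genes, *Tnnt2*, *Tnni3*, *Tnnc1*, *Tnnt1*, *Tnni1* and *Tnnc2*. The AP-1 element was in 0 of the 8 windows and in 5.2% of all 32851 windows of this length. TGACGTCA was in 0 of 8 and in 1.79% of all windows. The M-CAT was in 1 of 8, that of *Tnnt2*, and in 5.36% of all. TATAAA, the only form of the TATA box searched, was in 1 of 8, that of *Tnnt1* at position -30, and in 13.6% of all. Other forms were not searched, so the tatataag near the end of the *Tnnc1* sequence is not marked. MEF2 sites and CArG boxes were in 0 of 8 each, and in 3.19% and 1.63% of all windows.

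The deleted gene was low on the arrays that should lack it. By its brighter probe set *Jun* was at a log2 signal of 7.02 and 7.14 in *Jun* delta mu hearts, against 8.297 and 8.999 in *Jun* f/f hearts. The difference was -1.57 (standard error 0.23, limma, unadjusted p = 0.00076, adjusted p = 0.896). Heart muscle was plainly present, with *Myh6*, the main cardiac myosin heavy chain, at 14.69 and 14.67 in *Jun* delta mu and 14.72 and 14.70 in *Jun* f/f hearts. Signals are deposited RMA values on the log2 scale, and array medians lay between 5.45 and 5.47. A probe set passed the study's threshold when the genotypes differed by more than 1.3-fold, which is 0.379 on the log2 scale, with an unadjusted p under 0.05 in a limma fit over all probe sets. *Jun* f/f replicate 1 stood apart. On it 104 probe sets differed over 2-fold from the average of the remaining arrays, and the other 3 arrays had 24 to 33 such probe sets each. *Jun* delta mu replicate 2 was the array with high atrial genes, among them *Myl7*, the atrial myosin light chain, at 9.11, with 5.02 on the other *Jun* delta mu array, against 4.88 and 5.51 in *Jun* f/f hearts.

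No troponin gene passed the threshold in *Jun* delta mu hearts. The count was 0 of 12 probe sets in either direction, where 1.53% of all 45037 probe sets passed, 0.568% as higher and 0.959% as lower, so that a count of 0 among 12 is near the background. No probe set of any gene reached an adjusted p under 0.05 (limma, smallest 0.237), and 1 of the 12 had an unadjusted p under 0.05, where 5.16% of all did. Differences of *Jun* delta mu minus *Jun* f/f ran from -0.23 for *Tnnc1* to 0.34 for *Tnni2*. Over the 8 genes by their brightest probe sets the median difference was 0.06, beside 0.01 over all genes.

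**Figure D1:**
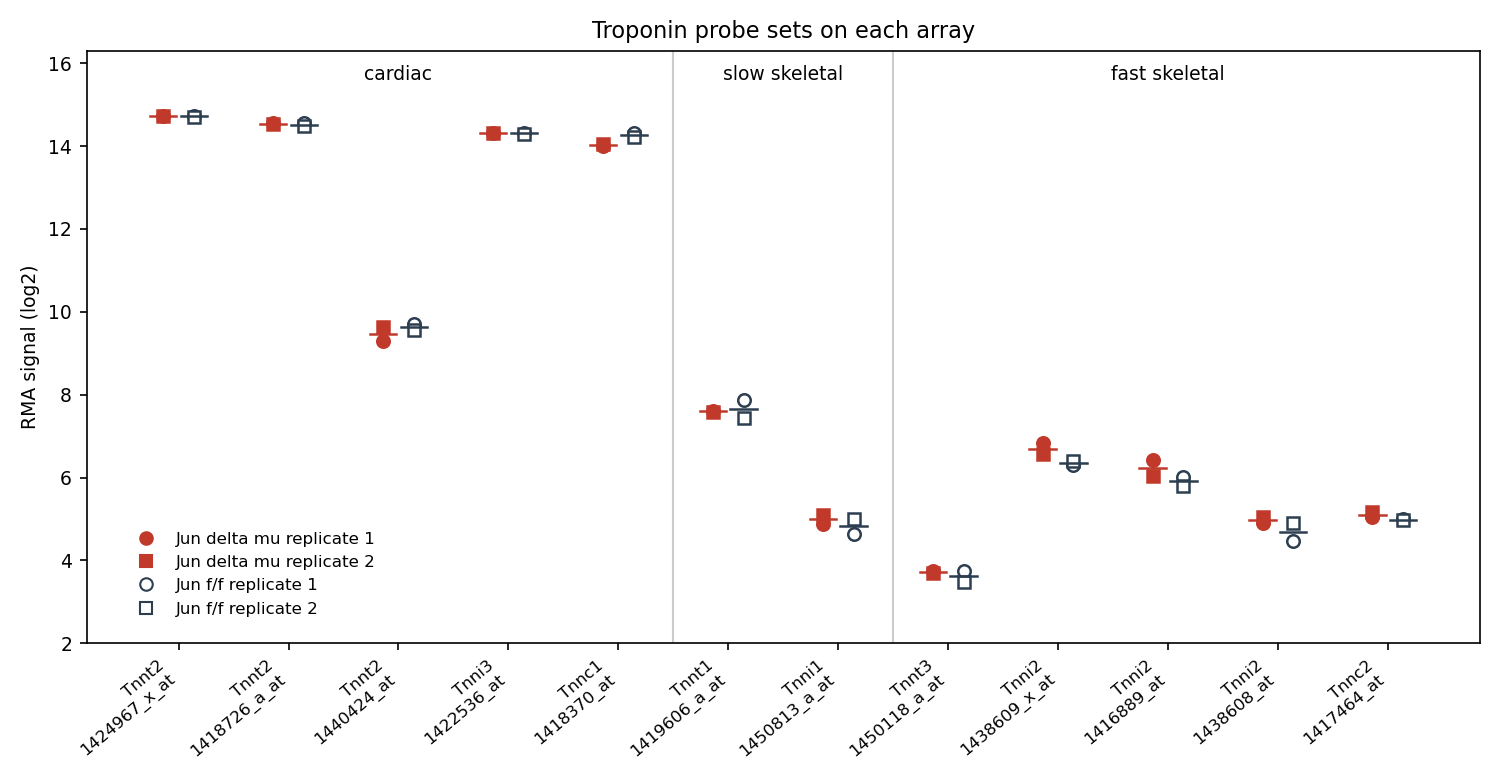
RMA signal (log2, vertical axis) of the 12 troponin probe sets on each array. Filled red symbols are Jun delta mu and open symbols Jun f/f hearts. Circles are replicate 1, squares are replicate 2, and a line marks each group mean. The brighter probe sets of Tnnt2 and the probe sets of Tnni3 and Tnnc1 lie at 14.01 or above on every array, near the top of the scale, whereas the skeletal isoforms lie between 3.48 and 7.88.

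Both dominant probe sets of cardiac troponin T had nearly the same signal on all arrays. *Tnnt2* lies on chromosome 1 of GRCm38 from 135836315 to 135852268, and its mutations are a known cause of cardiomyopathy in humans. The brightest probe set (1424967_x_at, where the suffix x marks probes that can also match other sequences) was at 14.73 and 14.73 in *Jun* delta mu hearts and at 14.72 and 14.71 in *Jun* f/f hearts. The groups did not overlap, but they were 0.02 apart (standard error 0.09, 95% interval -0.19 to 0.23, adjusted p = 0.992). The second (1418726_a_at) was at 14.54 and 14.52 in *Jun* delta mu hearts, against 14.55 and 14.48 in *Jun* f/f hearts. It overlapped between genotypes and differed by 0.02 as well (95% interval -0.20 to 0.24, adjusted p = 0.992). Both intervals lay inside 1.3-fold either way, as did those of 53.5% of all probe sets, but whether probes this close to the highest value on the arrays (14.87) still scale with RNA was not tested. The remaining probe set of the gene (1440424_at) gave a lower signal, at 9.30 and 9.63 in *Jun* delta mu and 9.70 and 9.55 in *Jun* f/f hearts. It differed by -0.16 with overlapping groups, and its interval, -0.51 to 0.18, did reach 1.3-fold.

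Cardiac troponin I overlapped between the genotypes. *Tnni3*, on chromosome 7 from 4518305 to 4522718, encodes the inhibitory subunit that protein kinase A phosphorylates when the heart is driven by adrenaline. It was at 14.32 and 14.31 in *Jun* delta mu hearts, against 14.32 and 14.30 in *Jun* f/f hearts. The difference was 0.005 (standard error 0.09, 95% interval -0.21 to 0.22, adjusted p = 1). On each array the 4 cardiac probe sets, *Tnni3*, *Tnnc1* and both bright ones of *Tnnt2*, ranked among the 49 brightest of 45037, and the same limit holds for each of them.

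Cardiac and slow skeletal troponin C had the most negative difference of the 8 genes. *Tnnc1*, on chromosome 14 from 31208312 to 31211729, encodes the calcium sensor that heart and slow muscle share. Its signal was 14.01 and 14.06 in *Jun* delta mu hearts and 14.31 and 14.21 in *Jun* f/f hearts. Both *Jun* delta mu arrays were below both *Jun* f/f arrays, as for 16.7% of all probe sets, and *Tnnc1* was the 1 of the 12 with this order. The difference was -0.23 (standard error 0.09, 95% interval -0.46 to 0.003), or 0.855 of the *Jun* f/f signal, and it did not pass (limma, unadjusted p = 0.0522, adjusted p = 0.896). The interval reached past 1.3-fold on the lower side. The p-value depended on the setting, while the difference stayed under 1.3-fold in each. With all arrays, the unadjusted limma p ran from 0.0045 with a trended prior (adjusted p = 0.907) to 0.0782 with replicate number as a block (adjusted p = 0.861). Leaving out each array in turn gave -0.28 to -0.18. In RNA of a whole sample, fewer cells of a type and less RNA per cell cannot be told apart.

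The slow isoforms of troponin T and I overlapped between the genotypes, the first with a signal above the array medians and the other below them. *Tnnt1*, on chromosome 7 from 4504569 to 4515975, was at 7.61 and 7.58 in *Jun* delta mu hearts, against 7.88 and 7.45 in *Jun* f/f hearts. Both *Jun* delta mu values fell inside the spread of *Jun* f/f, and the difference was -0.07 (95% interval -0.45 to 0.32). *Tnni1*, the fetal and slow isoform, on chromosome 1 from 135783033 to 135810989, was at 4.89 and 5.10 in *Jun* delta mu and 4.64 and 5.01 in *Jun* f/f hearts. It differed by 0.17 with overlapping groups (95% interval -0.22 to 0.56). Both genes turned sign without *Jun* f/f replicate 1, to 0.15 for *Tnnt1* and -0.015 for *Tnni1*. The highest *Tnni1* value was on *Jun* delta mu replicate 2. That array and its partner held *Sln*, a calcium pump inhibitor of atrial muscle, at 8.11 and 4.10, against 3.81 and 4.15 in *Jun* f/f hearts, and the summed linear signal of 5 atrial markers was 5407 and 8515 in *Jun* delta mu, against 3957 and 5637 in *Jun* f/f hearts. Most of each sum came from *Nppa*, the gene of atrial natriuretic peptide, which stressed ventricle also makes, at 12.34 and 12.79 in *Jun* delta mu, against 11.88 and 12.40 in *Jun* f/f hearts. None of the 5 passed the threshold, and the part of atrial tissue in the values of *Tnni1* was not tested.

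Fast skeletal troponin I had the largest positive difference of the 8 genes. *Tnni2*, on chromosome 7 from 142441816 to 142444410, encodes the inhibitory subunit of fast fibres. Its brightest probe set (1438609_x_at) was at 6.83 and 6.57 in *Jun* delta mu hearts and 6.31 and 6.40 in *Jun* f/f hearts. Its suffix x again marks probes that can also match other sequences. Both *Jun* delta mu arrays were above both *Jun* f/f arrays by this probe set and by 1416889_at, an order that 17.3% of all probe sets had. At 1416889_at the gap between the groups was only 0.005. At 1416889_at the signal was 6.42 and 6.03 in *Jun* delta mu, against 6.03 and 5.79 in *Jun* f/f hearts. The dimmest (1438608_at) was at 4.90 and 5.05 in *Jun* delta mu and 4.48 and 4.91 in *Jun* f/f hearts, with groups that overlapped. The 3 differences were 0.34, 0.32 and 0.28, all short of 1.3-fold, and the first had an unadjusted p = 0.031 (limma, adjusted p = 0.896 for each). These values moved with single arrays. Both brighter probe sets passed without *Jun* delta mu replicate 2, at 0.47 and 0.51, but were at 0.21 and 0.12 without *Jun* delta mu replicate 1. The dimmest passed without *Jun* f/f replicate 2, at 0.50, but was at 0.063 without *Jun* f/f replicate 1.

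The other fast isoforms gave low signals with small differences. *Tnnt3*, fast troponin T on chromosome 7 from 142498771 to 142516213, was at 3.75 and 3.70 in *Jun* delta mu hearts and at 3.75 and 3.48 in *Jun* f/f hearts. Only 11.1% to 18.3% of probe sets were dimmer, and the difference of 0.11 (95% interval -0.19 to 0.41) came from overlapping groups. *Tnnc2*, fast troponin C on chromosome 2 from 164777161 to 164779734, was at 5.04 and 5.16 in *Jun* delta mu, against 5.00 and 4.97 in *Jun* f/f hearts. Here the groups did not overlap, the difference was 0.11, and its interval (-0.12 to 0.35) stayed inside 1.3-fold. Counting all 12 probe sets, 4 were higher on both *Jun* delta mu arrays, 2 of them of *Tnni2*, 1 was lower on both and 7 overlapped, where 17.3% of all probe sets were higher on both and 16.7% lower on both. How far these probe sets lie above background is unknown, because the values carry no detection calls.

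**Figure D2:**
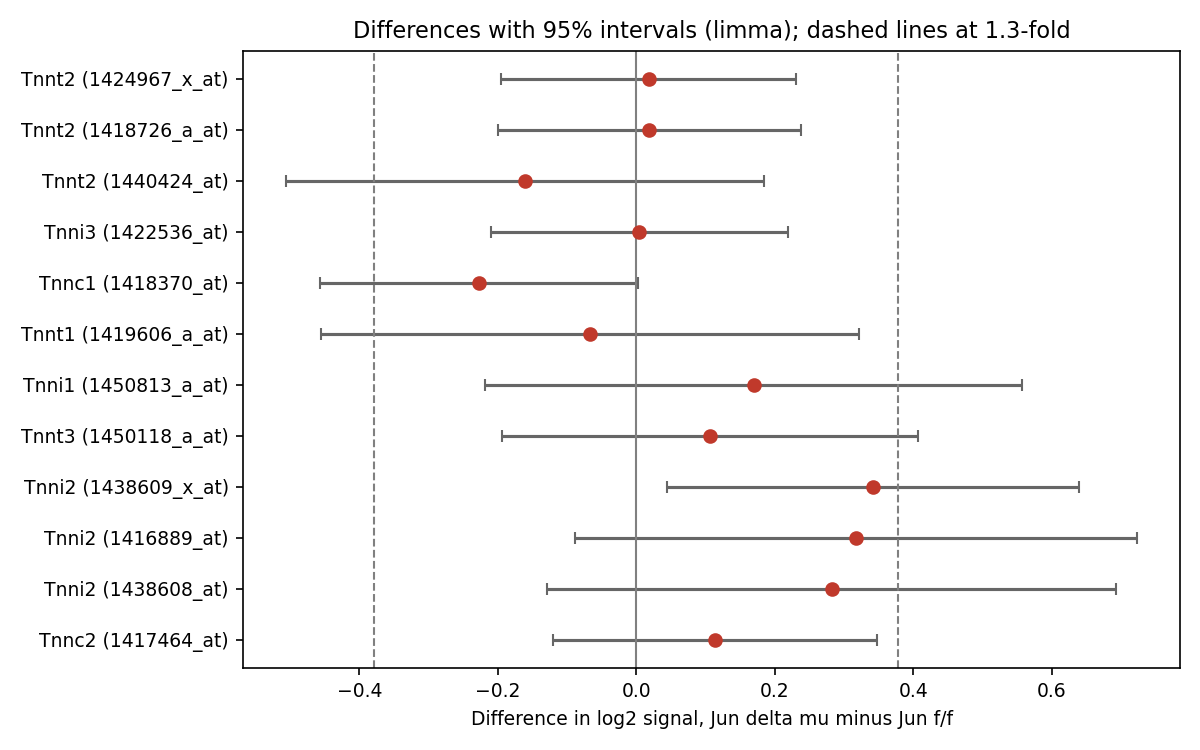
Difference in log2 signal, Jun delta mu minus Jun f/f (horizontal axis), for each troponin probe set with its 95% interval from limma; dashed lines mark 1.3-fold either way. No point lies beyond a dashed line, 4 of the 12 intervals lie wholly between them, and only the interval of the brightest Tnni2 probe set leaves out 0.

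The balance of skeletal to cardiac isoforms was followed within each array as a difference of log2 signals, in which only the change between arrays has a meaning because probe sets differ in brightness. Fast over cardiac troponin I (*Tnni2* minus *Tnni3*) was -7.49 and -7.74 in *Jun* delta mu hearts, against -8.01 and -7.90 in *Jun* f/f hearts. Fast over cardiac troponin C (*Tnnc2* minus *Tnnc1*) was -8.97 and -8.90 in *Jun* delta mu, against -9.31 and -9.24 in *Jun* f/f hearts. In both, the *Jun* delta mu arrays were above the *Jun* f/f arrays, and the changes were 0.34 each, or 1.26 and 1.27 times the *Jun* f/f ratio. An exact permutation test (two-sided) gave p = 0.333 for each, the smallest that 2 arrays against 2 can give, and 0.833 after adjustment over the 5 ratios. Without *Jun* delta mu replicate 1 the change in *Tnni2* minus *Tnni3* was 0.21. The change in troponin C came from both members, with *Tnnc2* at 0.11 and *Tnnc1* at -0.23, whereas in troponin I it came from *Tnni2* at 0.34 with *Tnni3* at 0.005.

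The other 3 ratios overlapped between genotypes. Slow fetal over cardiac troponin I (*Tnni1* minus *Tnni3*) was -9.43 and -9.20 in *Jun* delta mu hearts, against -9.68 and -9.28 in *Jun* f/f hearts, a change of 0.16 (exact permutation test, p = 0.667). Slow over cardiac troponin T (*Tnnt1* minus *Tnnt2*) changed by -0.08 and fast over cardiac troponin T (*Tnnt3* minus *Tnnt2*) by 0.09, with an exact p = 1 for each. Each of these 3 changed sign when 1 of the *Jun* f/f arrays was left out.

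**Figure D3:**
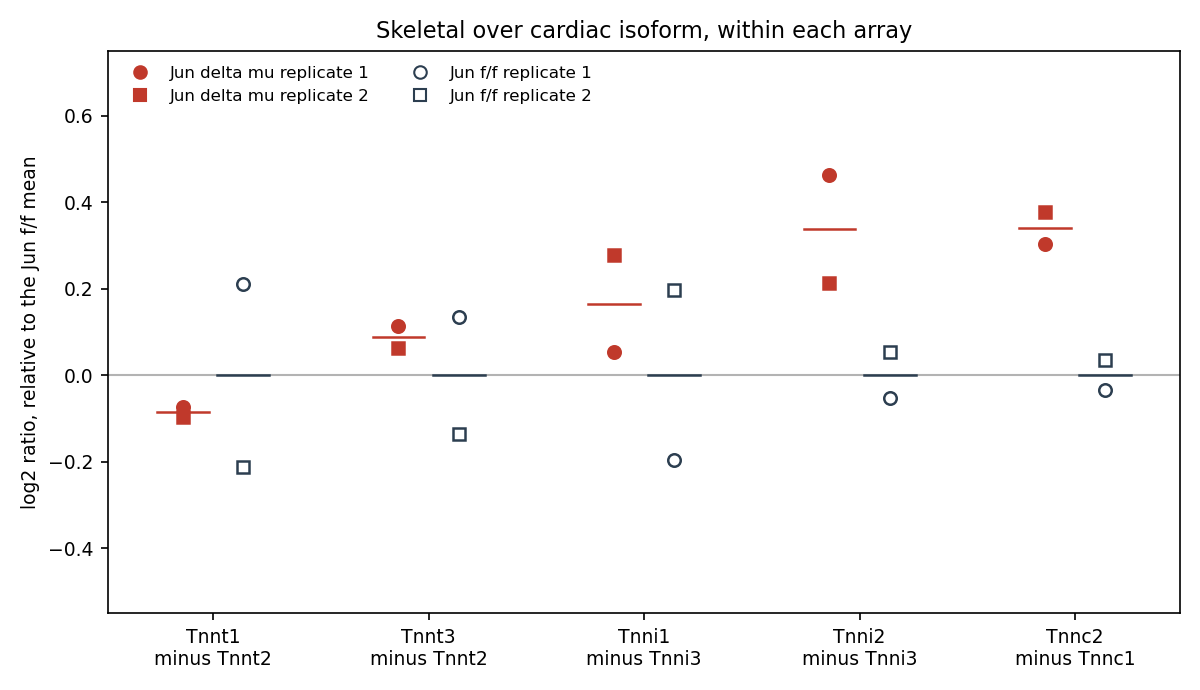
Log2 ratio of a skeletal to the cardiac isoform within each array, shown relative to the mean of the Jun f/f arrays (vertical axis), for 5 isoform pairs. Filled red symbols are Jun delta mu and open symbols Jun f/f hearts (circle, replicate 1; square, replicate 2; line, group mean). The genotypes do not overlap for Tnni2 minus Tnni3 and Tnnc2 minus Tnnc1, with changes of 0.34 each, and overlap for the other 3.

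The fast isoforms of troponin stood beside other skeletal-type genes whose changes ran both ways. Of 14 markers of skeletal muscle, *Myl1*, a light chain of fast myosin, was higher past the threshold, *Casq1* and *Mybpc2* were lower and 11 did not pass, with a median difference of -0.09. Over all genes 0.665% were higher and 0.786% lower. By limma *Myl1* differed by 1.04 and *Mybpc2*, the myosin binding protein C of fast fibres, by -2.30, while *Tnni2*, *Tnnt3* and *Tnnc2* differed by 0.34, 0.11 and 0.11. Of the 14 markers, 6 were below the array median on every array and 6 above it on every array. *Myh4*, the heavy chain of the fastest fibres, was at 3.11 and 3.23 in *Jun* delta mu, against 3.35 and 3.17 in *Jun* f/f hearts. The summed linear signal of the 14 was 3189 and 3222 in *Jun* delta mu, against 2004 and 2239 in *Jun* f/f hearts, most of it from *Myl1*. The direction of the sum is that of *Myl1* and not of the list. By order, 5 of the 14 were lower on both *Jun* delta mu arrays and 2 higher on both, where 16.7% and 17.3% of all probe sets were. The part of skeletal muscle tissue in the values of *Tnni2* was not tested.

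Among the partners of troponin on the thin filament, 1 of 17 genes passed by its brightest probe set, where 1.45% of all 18193 genes did, 0.665% as higher and 0.786% as lower. β-tropomyosin (*Tpm2*), a sarcomere component that smooth muscle also makes, was at 8.70 and 8.86 in *Jun* delta mu hearts, against 9.28 and 9.13 in *Jun* f/f hearts. It was lower by -0.42 (adjusted p = 0.896). It fell short of 1.3-fold at -0.35 when *Jun* f/f replicate 1 was left out and at -0.34 when *Jun* delta mu replicate 1 was. It did not pass the methods' t-test. The study also selected genes by quantitative RT-PCR, and that method gave lower β-tropomyosin in its unstimulated *Jun* delta mu hearts. All 4 markers of smooth muscle had negative differences beside *Tpm2*, with a median of -0.49. Of these markers 1 was past the threshold and 3 were lower on both *Jun* delta mu arrays, an order that 16.7% of all probe sets had. *Cnn1*, smooth muscle calponin, was at 4.67 and 5.11 in *Jun* delta mu, against 5.81 and 5.31 in *Jun* f/f hearts. The summed linear signal of the 4 was 1373 and 1636 in *Jun* delta mu, against 1967 and 1994 in *Jun* f/f hearts, and its part in *Tpm2* was not tested. α-tropomyosin (*Tpm1*), the main form of the heart, differed by -0.03 and cardiac α-actin (*Actc1*) by -0.02. Skeletal α-actin (*Acta1*) was lower at baseline by the study's quantitative RT-PCR. On these arrays it was at 9.74 and 10.71 in *Jun* delta mu, against 10.75 and 11.30 in *Jun* f/f hearts, and did not pass. It passed at -1.28 without *Jun* delta mu replicate 2, and at -0.80 with a trended prior and with replicate number as a block. Nebulin (*Neb*), the ruler of skeletal thin filaments, was high on 1 array, at 5.50 and 4.17 in *Jun* delta mu, against 4.31 and 4.72 in *Jun* f/f hearts. *Jun* delta mu replicate 1, where *Neb* was highest, was also the array with the highest *Tnni2* at both brighter probe sets. *Acta1* was at its lowest on that array, as were several skeletal markers, among them *Myh4*, *Casq1* and *Mybpc2*, whereas *Myh1*, another of those markers, was at its highest. *Acta1*, *Casq1* and *Mybpc2* were lower on both *Jun* delta mu arrays, so their lowest value had to be on 1 of these. The part of skeletal muscle tissue in the values of *Neb* was not tested. The median over the 17 genes was -0.04. By order, 8 of the 17 were lower on both *Jun* delta mu arrays and 2 higher on both, where 16.7% and 17.3% of all probe sets were.

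Of 12 measured kinases, partners and phosphatases of troponin, 0 passed the threshold, a count near the 1.45% of all genes that passed, and their median difference was 0.01. *Prkaca*, the catalytic subunit of protein kinase A, differed by 0.003, and *Prkcd*, a protein kinase C, by -0.17. *Tnni3k*, a heart kinase named for its binding to troponin I, was at 9.39 and 9.34 in *Jun* delta mu, against 9.17 and 9.28 in *Jun* f/f hearts, a difference of 0.14. *Ppp2ca*, the catalytic subunit of phosphatase 2A, differed by -0.09.

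Troponin I and T genes lie in pairs on the genome, and a gene between the members of 1 pair passed the threshold. *Tnni1* and *Tnnt2* are 25325 bases apart on chromosome 1, *Tnnt1* and *Tnni3* 2329 bases apart on chromosome 7, and *Tnni2* and *Tnnt3* 54360 bases apart on the same chromosome. *Lad1*, which encodes the anchoring filament protein ladinin, lies between *Tnni1* and *Tnnt2* from 135818598 to 135833341. It was at 8.32 and 8.36 in *Jun* delta mu hearts, against 7.19 and 7.54 in *Jun* f/f hearts. It was higher past the threshold by 0.98 (standard error 0.14, limma, unadjusted p = 0.000535, adjusted p = 0.896), at 0.81 to 1.15 when each array was left out in turn. *Tnni1* on one side differed by 0.17 and *Tnnt2* on the other by 0.02, and neither passed. The difference between *Lad1* and its neighbours was not tested, and the interval of *Tnni1* reached past 1.3-fold.

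Around all 8 genes, the 3 nearest measured genes on each side made 32 neighbours with 50 probe sets. By the brightest probe set, *Lad1* was higher past the threshold, none was lower and the other 31 did not pass, where 0.665% of all genes were higher and 0.786% lower. Dimmer probe sets passed as lower for *Csrp1*, a LIM protein next but one to *Tnni1* that smooth muscle also makes, at -0.39, and for *Nisch*, next to *Tnnc1*, at -0.45, where 0.959% of all probe sets passed as lower. The part of smooth muscle, whose markers are given with *Tpm2*, in the values of *Csrp1* was not tested. The call for *Csrp1* was lost without *Jun* f/f replicate 2, at -0.36, and with quantile normalization or cyclic loess, at -0.36 and -0.37. The brightest probe set of *Csrp1* was at -0.35 and that of *Nisch* at -0.003. *Lsp1*, a leukocyte protein between *Tnni2* and *Tnnt3*, differed by 0.20 and did not pass.

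**Figure D4:**
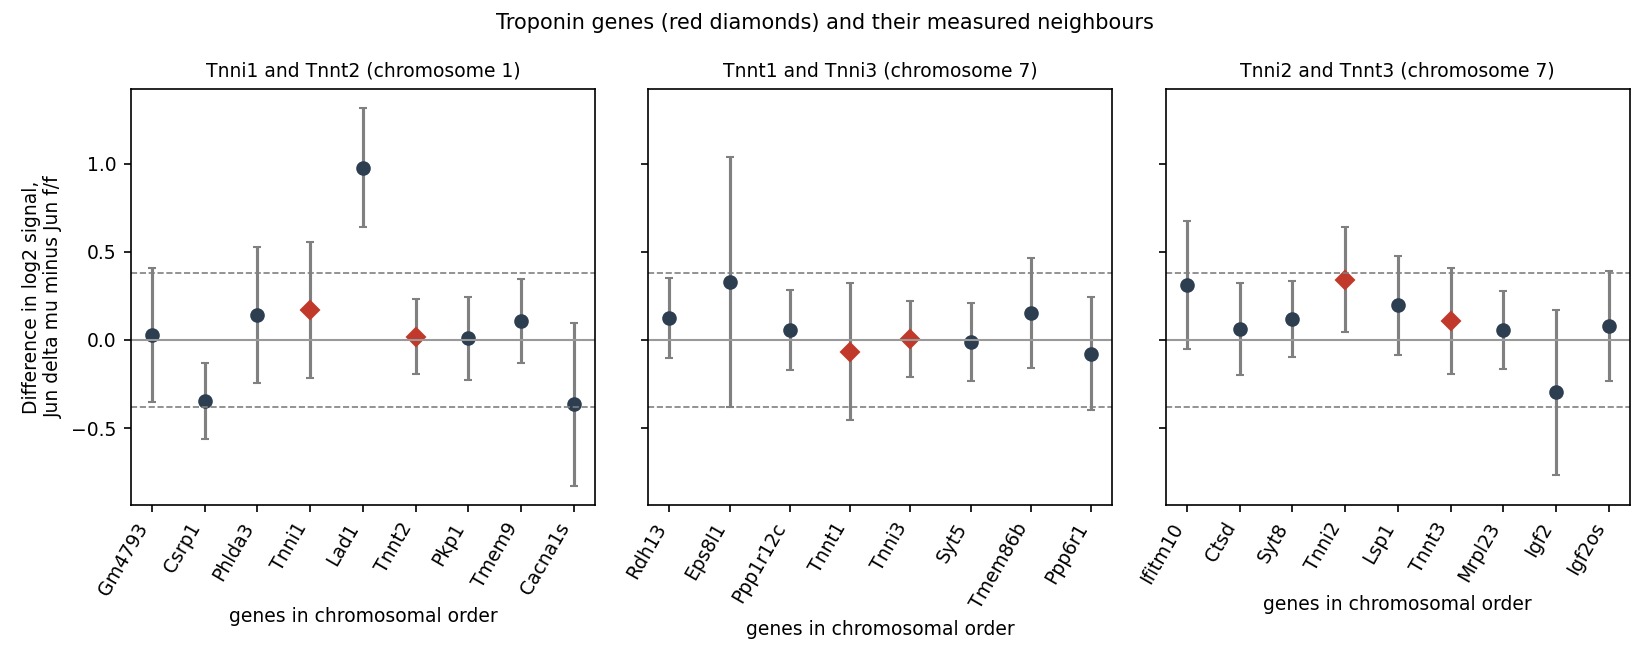
Difference in log2 signal, Jun delta mu minus Jun f/f (vertical axis), with 95% intervals from limma for the paired troponin genes (red diamonds) and the measured genes nearest to them (dark circles), by the brightest probe set and in chromosomal order; dashed lines mark 1.3-fold. Lad1, between Tnni1 and Tnnt2, is at 0.98, while the 6 troponin genes shown lie between -0.07 and 0.34.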

How the data were processed

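Total RNA of samples labelled as hearts was hybridised to Affymetrix mouse arrays, 1 per heart. The authors deposited log2 signals made by RMA, which corrects background, normalizes between arrays and summarises the probes of a set, and the submitters' notes name the R package oligo without a version. Of 45101 probe sets, none with a missing value, the 64 AFFX controls were left out, and 45037 were fitted with limma 3.58.1 in R 4.3.3 on genotype alone, two-sided, with Benjamini-Hochberg adjustment over all of them. The study's threshold was applied with limma in place of Student's test. The fit was tested on simulated data whose variances were drawn from its own prior, which cannot show whether that prior suits these arrays. The intervals rest on this prior. For the brightest *Tnnt2* probe set the standard error was 0.085 in the main fit, 0.037 with a trended prior and 0.0019 by the t-test. Precision is limited by the small number of arrays (2 of each genotype, 2 residual degrees of freedom), and nothing says whether replicates differ beyond being separate hearts. Genes were named by the platform annotation (34945 probe sets with 1 name, 932 with several, 9160 with none), and positions came from RefSeq genes on GRCm38.p6, matched by gene identifier for 34741 named probe sets. Promoter sequences are RefSeq's. Where a gene had several probe sets, the brightest over all arrays stood for it in lists and ratios. All members were described with every probe set. From the lists, genes past the threshold and up to 4 others were named, then neighbours past it, and the 3 genes most alike to the widest-ranging member. *Lsp1* and the skeletal markers were named after their values were seen, and the alternatives for *Neb*, *Acta1*, *Tpm2*, *Lad1*, *Csrp1* and *Jun* were chosen after seeing the data. Alternatives were the methods' t-test, a replicate block, another prior, a filter on dim probe sets, 3 normalizations, array weights, the median over probe sets, adjusted p-values and leaving out each array, which assumes that a single remaining array varies as the other genotype does. Members and lists were chosen with earlier results of these data known.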

Additional observations from a re-analysis of the deposited data

How the results depend on the processing

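Of 142 values of the 12 troponin probe sets under alternatives, 128 kept their direction and side of the study's threshold, 11 changed sign and 3, all of *Tnni2*, passed. Troponin probe sets past the threshold as higher were 0 to 2 when each array was left out, and 0 otherwise. Part of the 142 values could not change in either respect. The t-test, replicate block, other prior, dim filter and array weights left each fitted troponin difference as in the main fit. All these differences were short of the fold limit in the threshold, so they could neither change sign nor pass. Only the normalizations and leaving out arrays could move them. With cyclic loess both bright probe sets of *Tnnt2* were at -0.014 and -0.012 and *Tnni3* at -0.024. With repeated quantile normalization *Tnni3* was at -0.011. Leaving out each array gave -0.013 to 0.051 for *Tnnt2* (1418726_a_at), -0.32 to 0.00096 for its dim probe set, -0.0070 to 0.016 for *Tnni3*, -0.28 to 0.15 for *Tnnt1*, -0.015 to 0.35 for *Tnni1* and -0.031 to 0.24 for *Tnnt3*. The ratio changes then ran from -0.30 to 0.13 for *Tnnt1* over *Tnnt2*, -0.047 to 0.22 for *Tnnt3* over *Tnnt2* and -0.032 to 0.36 for *Tnni1* over *Tnni3*. Over all probe sets, 256 were higher and 432 lower past the threshold. These counts were 89 and 111 with the methods' t-test, 0 and 0 at an adjusted p under 0.05, 158 higher without the dimmest 40%, and 320 to 1466 higher and 419 to 1986 lower when each array was left out, with the most without *Jun* f/f replicate 2. Lower thin filament genes numbered 0 with the t-test and with the median over probe sets, 2 with a trended prior (*Tpm2* and *Acta1*) and 0 to 2 without single arrays, and higher ones 0 to 1. Higher atrial markers numbered 0 to 3 without single arrays, the 3 without *Jun* delta mu replicate 1. *Neb* ran from -0.35 without *Jun* delta mu replicate 1 to 0.98, past the threshold, without *Jun* delta mu replicate 2. The causes were not tested. Nothing says whether same-numbered hearts share more than a number (correlation of deviations over all probe sets 0.0281). With replicate number as a block, 0 troponin probe sets passed, 254 of all were higher and 429 lower, the same 2 thin filament genes were lower and 1 atrial marker was higher. The filter left out *Tnnt3* and the dimmest probe set of *Tnni2*.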

Other observations

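*Tnni2* had the widest range over the 4 arrays of the 8 genes by brightest probe set, at 0.51 on the log2 scale. After each gene was centred on its own mean, the 3 genes whose 4 values lay closest to those of *Tnni2* were *Mettl7a2*, *BC048507* and *Slc6a17*, with root mean square differences of 0.0081, 0.0082 and 0.016. Each was higher on both *Jun* delta mu arrays, by 0.34, and none passed the study's threshold, which follows from choosing them for their likeness to *Tnni2*. With 4 arrays and 18193 genes, such closeness is a description of these arrays.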
